A study of Mus musculus with 8 samples.

Results

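Solute carriers are the membrane proteins that move nutrients, ions and metabolites across the plasma membrane and the membranes of organelles, and their genes carry family symbols that begin with Slc. They were compared between pancreatic islets of wild type mice and islets of Tcf1 knock-out mice. The members were selected on the annotated symbol and on the mean intensity. They are the probe sets with 1 annotated symbol of the form Slc, family number, a, member number, without Slc2a2 and Slc16a1, whose mean intensity over the 4 arrays of their type was at least 62.5. This gave 219 probe sets of 175 genes in 45 families, 99 on array type MG-U74A and 120 on MG-U74B, out of 24833 probe sets that were not controls. RNA was total RNA of islets, hybridised to both Affymetrix types, with 2 arrays of each genotype on each type that the labels call biological replicates. The labels give the mice as wild type (WT) or Tcf1 knock-out (Tcf1 KO), with no age, sex, strain, kind of allele or number of mice behind an array, and name no agent that either genotype received. Nothing in them says that the knock-out was limited to the islet, so islets were taken from mice that may have lacked the gene in other organs too. The transcript of the knocked-out gene itself was not analysed here, so the genotypes are taken as labelled.

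As background, the islet beta cell takes up glucose and amino acids, and their metabolism in mitochondria raises ATP and starts insulin secretion. Members of the Slc2 and Slc5 families carry sugars, and amino acids enter through several families, among them the Slc7 light chains that work bound to the heavy chain Slc3a2. The Slc30 carriers move zinc out of the cytosol, also into the granules where zinc is stored with insulin, and the Slc39 carriers move it into the cytosol. Carriers of the Slc25 family exchange metabolites and nucleotides across the inner mitochondrial membrane.

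Values are the authors' linear intensities, which can fall below 0, and changes are knock-out minus wild type on the log2 scale after values below 0 were set to 0 and 25 was added. A change is therefore smaller than the ratio of the intensities for low values, and where a genotype was listed at or below 0 its size depends on that constant and no fold is given. A probe set is called changed, risen or fallen, at an adjusted p under 0.05 from limma over all tested probe sets of the array type. The array types were normalized separately and probe sets bind their transcripts unequally, so no level is set against that of another probe set. On MG-U74A 173 probe sets of 140 genes met the name rule, and 74 lay below the filter. On MG-U74B 197 probe sets of 150 genes met it and 77 lay below. The last members inside the filter were Slc6a18 on MG-U74A with a mean of 65.8 and Slc38a9 on MG-U74B with 62.9, and the first outside were Slc6a2 with 62.2 and Slc13a3 with 60.6. A mean at the filter can be carried by 1 genotype, which then had to differ. On MG-U74A 12 members had the mean of a genotype below 62.5, 7 of them in wild type and 5 in knock-out, and on MG-U74B 15 did, 9 and 6. Of these, 7 were called on MG-U74A, the rises of Slc7a7, Slc11a1, Slc22a18 and Slc44a2 and the falls of Slc1a4, Slc6a18 and Slc5a6. On MG-U74B 5 were, the rise of a probe set of Slc39a14 and the falls of Slc4a10, Slc25a25 and both probe sets of Slc45a4. The direction of these calls is tied to the filter, and they are given as descriptions. So is the direction of the uncalled members with a genotype mean below 62.5.

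The genotypes differed in more than these genes. On MG-U74A, 8 of 8 tested islet markers fell, with a summed intensity of 133472 to 134103 in wild type and 85477 to 93643 in knock-out. All 6 tested acinar markers fell as well, from 37477 to 37728 down to 4536 to 4970. In the other direction, 5 of 6 tested lymphocyte markers rose (4022 to 4029 in wild type, 16633 to 17636 in knock-out), and so did 7 of 7 tested macrophage markers (2565 to 2776, then 7560 to 7844). Of 9 fibroblast markers 7 rose and 1 fell (5385 to 5453, then 16463 to 17623). All 4 tested blood markers rose (403 to 442, then 1881 to 1940.1), and of 7 endothelial markers 5 rose and 1 fell (1966 to 1986, then 2432 to 2469). Of 4 duct markers 1 rose and 1 fell (3123 to 3193, then 2111 to 2154), and none of 3 tested nerve markers was called (349.6 to 470, then 458 to 567). Each sum is over all listed markers on the array, also those below the filter, with values below 0 set to 0. The sums thus cover 9 lymphocyte, 10 macrophage, 5 blood and 4 nerve markers, and the other lists were tested in full. Cd2, Cd3e, Cd79a, Aif1, Fcer1g, Itgam and Acta2 were at or below 0 on both wild type arrays, and Cd3e was so on both knock-out arrays. Those of these markers that were tested passed the filter through their knock-out arrays, so that their direction was fixed by that choice. Acta2 is 1 of them, as all 9 fibroblast markers were tested. The 3' to 5' ratio of Gapdh, a measure of RNA completeness, was 3.15 and 3.22 in wild type and 0.949 and 0.937 in knock-out. The part of cell makeup and of RNA completeness in the results below was not tested, and in whole islets fewer cells of a type and less RNA per cell cannot be told apart.

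On MG-U74A 33 of the 99 members fell (33.3%) and 10 rose (10.1%), where 29.0% of all 7516 tested probe sets fell and 23.9% rose. The share that fell was thus near the background and the share that rose was below it. Their median change was -0.21, beside -0.09 for all tested probe sets. Falls of at least 1 log2 unit were called for 14 members and such rises for 5, where 10.3% and 10.9% of all tested probe sets made them. Without the members that had a genotype mean below the filter, 30 falls and 6 rises remained, 12 and 1 of them by at least 1 log2 unit. All tested probe sets were not counted under that restriction, so these numbers have no background and nothing is read from them. Both knock-out arrays lay below both wild type arrays for 52 members and above them for 20, and the arrays overlapped for 27. Over all tested probe sets 43.9% lay below and 35.2% above. On MG-U74B 14 of 120 members fell (11.7%, background 8.87%) and 8 rose (6.67%, background 8.59%). Changes of that size were 12 falls and 6 rises, beside 6.51% and 5.75% of all. Without the members with a genotype mean below the filter, 10 falls and 7 rises remained, here too without a background under that restriction. The members' median there was 0.05, beside 0.11 for all tested probe sets. On that type the knock-out arrays lay above for 41 members, below for 33 and overlapped for 46, where the background was 36.2% above and 28.8% below. The total of changed members on MG-U74B, 18.3%, was close to the 17.5% of all probe sets, and the total on MG-U74A, 43.4%, was below the 52.9% of all.

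With 2 arrays a genotype the calls leaned on single arrays. On MG-U74A 24 of the 43 calls held whichever array was left out, 5 rises and 19 falls, and no sign turned. With both genotype means at or above the filter these were 18. Without either wild type array of MG-U74B no probe set of the 7861 was called by limma, with 1873 and 1817 at an unadjusted p under 0.05, of which 29 and 26 were members. Without knock-out replicate 1 of that type 5 of the 22 calls were kept, and without knock-out replicate 2 8 were kept, all of them falls. All 22 kept their sign in each of these fits. These limits hold for every call on MG-U74B below. Without the intensity filter in the fit 7 of the 22 were called, all falls. The members' arrays also differed more on that type: the median absolute log2 difference between replicates was 0.322 in wild type and 0.304 in knock-out, and 0.0774 and 0.172 on MG-U74A.

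**Figure D1:**
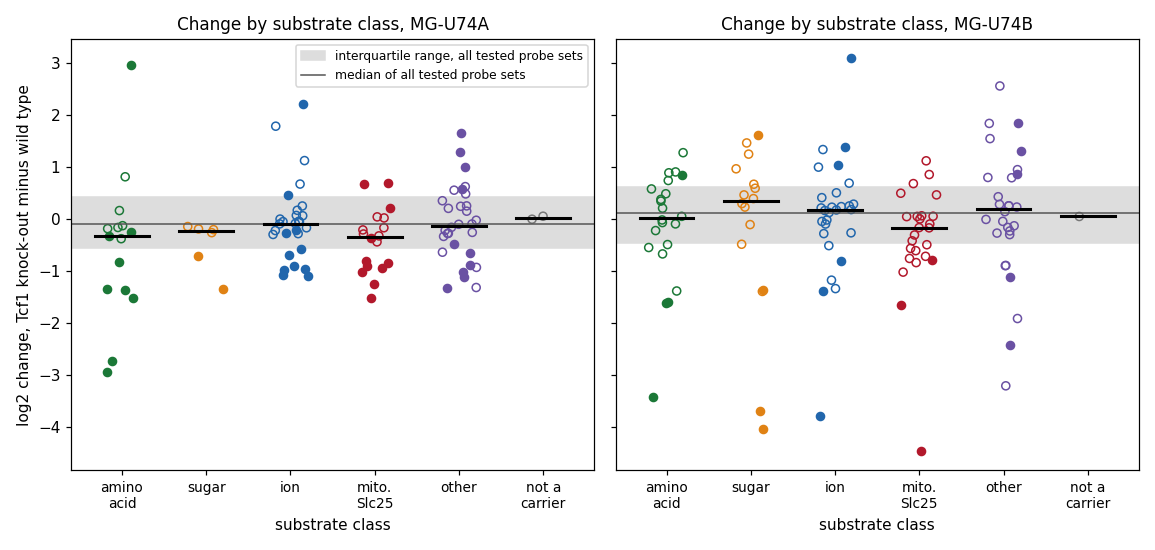
Log2 change (knock-out minus wild type) of every member probe set by substrate class, one panel per array type, with called members filled, uncalled members open and a black bar at the median of each class. The grey band and line are the interquartile range and median of all tested probe sets. On MG-U74A most filled points lie below 0, with 33 falls and 10 rises. On MG-U74B most members are uncalled, 98 of 120.

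Of 15 amino acid probe sets of 14 genes on MG-U74A 8 fell, 1 rose and 6 did not pass, with a median change of -0.33. These are 53.3% and 6.67% of them, beside 29.0% and 23.9% of all tested probe sets. The counts include the falls of Slc1a4 and Slc6a18 and the rise of Slc7a7, which had a genotype mean below the filter. The light and heavy chains of the plasma membrane heteromers were among those that fell. Slc3a2, the heavy chain, was at 3779 and 3324 in wild type and at 2054 and 1942 in knock-out (change -0.82 ± 0.08 SE, adjusted p = 0.00213). Slc7a5, the light chain of the LAT1 carrier of large neutral amino acids, went from 1403 and 1416 to 594 and 484 (-1.35 ± 0.11, adjusted p = 0.00140). Slc7a8, the light chain of LAT2, went from 259 and 257 to 78.6 and 67.8 (-1.53 ± 0.13, adjusted p = 0.00178). For all 3 genes both knock-out arrays lay under both wild type arrays, and the arrays of a genotype stood close together. Slc7a7, the light chain of the exchanger of cationic for neutral amino acids, moved the other way. It was at 8.20 and -60.2 in wild type and at 171 and 235 in knock-out (2.97 ± 0.28, adjusted p = 0.00226), so that a wild type array was below 0 and the size depends on the constant added.

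The steepest fall of the class was that of Slc1a4, a carrier of alanine, serine and cysteine, at 444 and 417 in wild type and at 48.6 and 22.3 in knock-out (-2.95 ± 0.26, adjusted p = 0.00176). Its knock-out mean of 35.4 was below the filter, so that it passed through its wild type arrays and its direction was tied to the filter. Slc6a18, a neutral amino acid carrier best known from the kidney tubule, was at 188 and 104 in wild type and listed below 0 on both knock-out arrays (-2.73 ± 0.34, adjusted p = 0.00480). It is the member of MG-U74A closest to the filter, which it passed through its wild type arrays, so that a lower value in knock-out was fixed by that choice. Slc38a4, a sodium-coupled carrier of neutral amino acids best known from liver, was at 780 and 787 and then at 263 and 319 (-1.36 ± 0.11, adjusted p = 0.00132). The call of Slc38a4 held without any single array. Smaller falls of the related Slc38a5 (-0.33, adjusted p = 0.0129) and Slc38a2 (-0.25, adjusted p = 0.0244) were lost without wild type replicate 1, at adjusted p of 0.0964 and 0.152, and without wild type replicate 2, at 0.0514 and 0.148. Another probe set of Slc38a2 was at 106 and 113 in wild type and at 123 and 69.5 in knock-out, on both sides of it. Slc6a9, the glycine carrier GlyT1, was above wild type on both knock-out arrays without passing the test, at 152 and 206 against 435 and 247 (adjusted p = 0.0936).

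On MG-U74B 3 of 22 amino acid probe sets fell, 1 rose and 18 did not pass, and the median change was 0.01. The called share, 18.2%, was near the 17.5% of all. Slc7a14, an orphan member of the cationic amino acid family, was at 4902 and 5070 in wild type and at 1706 and 1553 in knock-out (-1.60 ± 0.10, adjusted p = 0.00530). Slc36a1, the proton-coupled carrier that exports small amino acids from lysosomes, was at 1001 and 1047 and then at 309 and 325 (-1.62 ± 0.14, adjusted p = 0.00779). Slc38a4 had a probe set on this type as well, at 1302 and 1503 in wild type and at 54.8 and 192 in knock-out (-3.44 ± 0.50, adjusted p = 0.0168). All of these knock-out arrays were far under the wild type ones, although the knock-out arrays of Slc38a4 differed from each other. Slc7a11, the exchanger of cystine for glutamate, rose from 365 and 433 to 727 and 742 (0.85 ± 0.16, adjusted p = 0.0323).

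Among the uncalled members on MG-U74B, Slc7a2, a carrier of arginine and lysine, was at 1320 and 1348 against 1002 and 883 (-0.49 ± 0.12, adjusted p = 0.0565). A probe set of Slc7a2 on MG-U74A lay below the filter with a mean of 56.0. It was at 137 and 134 in wild type and below 0 on both knock-out arrays. In the limma fit without a filter that probe set was called as a fall (adjusted p = 0.00386). Slc43a2, a facilitated carrier of large neutral amino acids, had 3 member probe sets, with changes of -0.67, -0.07 and 0.05, none called. The first of them lay lower in knock-out without overlap, at 829 and 1184 against 1611 and 1582, and the other two overlapped. Slc43a1, of the same family, lay the other way, at 103 and 81.2 in wild type and 271 and 244 in knock-out (1.27 ± 0.32, adjusted p = 0.0604). Both probe sets of Slc38a2 on this type were above wild type without a call (0.38 and 0.58), opposite in sign to its called fall on MG-U74A.

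**Figure D2:**
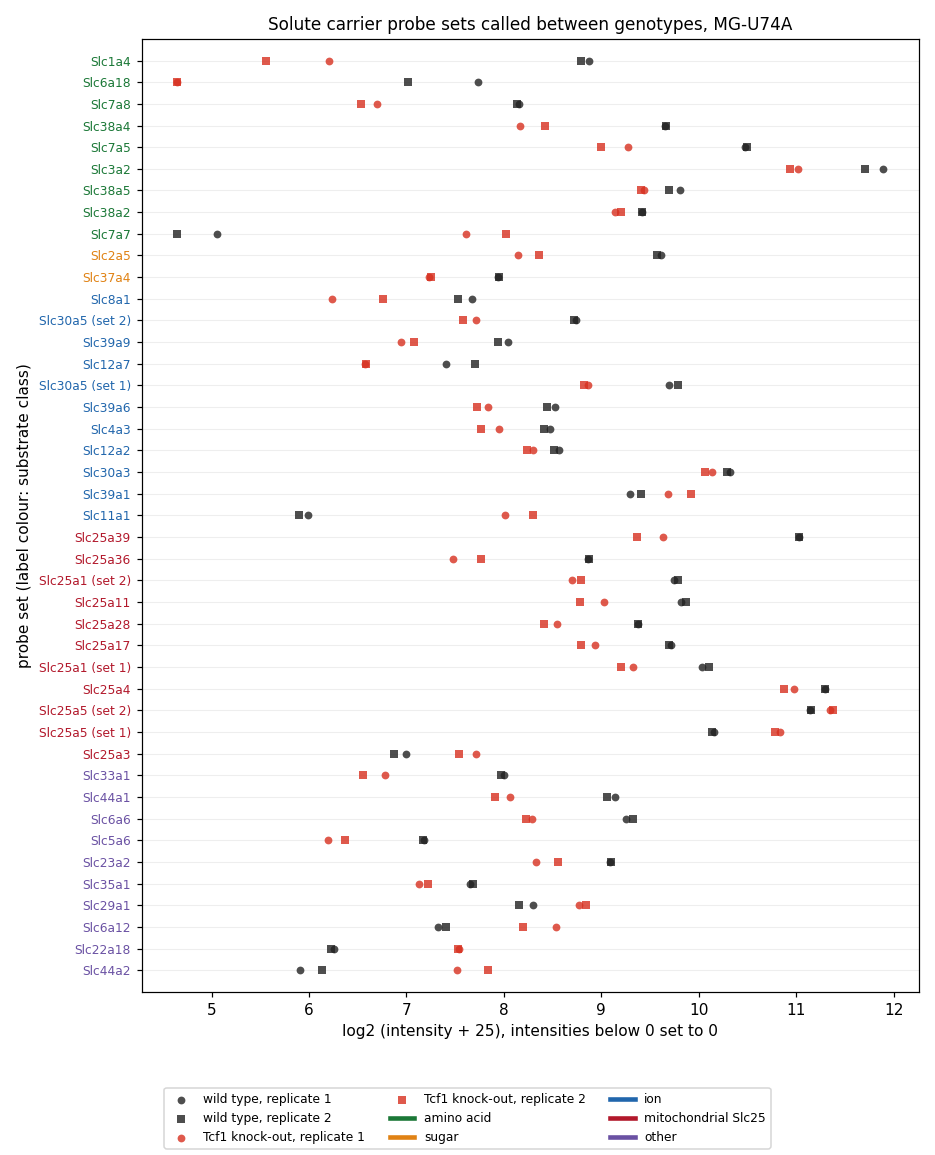
Called members of MG-U74A, ordered within substrate classes, with log2 (intensity + 25) of each of the 4 arrays on the horizontal axis, wild type in black and knock-out in red, and values below 0 set to 0. The arrays of a genotype mostly lie close together, as for Slc7a5 at 1403 and 1416 in wild type and 594 and 484 in knock-out.

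Of 6 sugar carrier probe sets on MG-U74A 2 fell (33.3%, background 29.0%) and none rose, with a median change of -0.24. Slc2a5, the fructose transporter GLUT5, was at 759 and 737 in wild type and at 258 and 304 in knock-out (-1.34 ± 0.10, adjusted p = 0.00109), with no overlap and no call lost on leaving out an array. Slc37a4, which brings glucose 6-phosphate into the endoplasmic reticulum, was at 220 and 223 and then at 124.99 and 127 (-0.70 ± 0.11, adjusted p = 0.00860). The call was lost without wild type replicate 1 (adjusted p = 0.0786) or wild type replicate 2 (0.0833). The glucose transporter Slc2a1 was at 206 and 224 in wild type and at 105 and 283 in knock-out (-0.26 ± 0.45, adjusted p = 0.649), and Slc2a3 was at 139 and 134 and at 184 and 77.0 (-0.15 ± 0.38, adjusted p = 0.767). For both the knock-out arrays lay on either side of wild type, so that neither a rise nor a fall could be read.

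On MG-U74B 3 of 16 sugar probe sets fell, 1 rose and 12 did not pass, with a median of 0.34. The called share was 25%, beside 17.5% of all. The falls included both member probe sets of Slc45a4, of a family of proton-linked sugar carriers. They were at 446 and 333, and at 270 and 332, in wild type, and were listed below 0 on both knock-out arrays (-4.04 ± 0.45 and -3.70 ± 0.47, adjusted p = 0.0102 and 0.0125). Both passed the filter through their wild type arrays, so that their direction was tied to the filter. Slc37a1, a sugar phosphate exchanger of the endoplasmic reticulum, was at 488 and 698 and then at 182 and 242 (-1.37 ± 0.27, adjusted p = 0.0342). Its other probe set lay higher in knock-out without a call, at 190 and 133 against 101 and 22.8. The wild type mean of that probe set was below the filter, so that its direction was tied to the filter. Slc5a2, the sodium-glucose cotransporter SGLT2, rose from 680 and 521 to 2110 and 1645 (1.61 ± 0.20, adjusted p = 0.0117). A further probe set of Slc5a2 was also above wild type on both knock-out arrays, at 200 and 145 against 55.8 and 99.6, without a call (0.96 ± 0.43, adjusted p = 0.190). Slc2a9, known as a urate transporter, was at 243 and 192 in wild type and at 888 and 458 in knock-out (1.46 ± 0.36, adjusted p = 0.0563), apart but not called.

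Ion carriers included the zinc families. On MG-U74A 9 of 28 ion probe sets fell, 2 rose and 17 did not pass, with a median change of -0.09, that of all tested probe sets. The share that fell, 32.1%, was near the 29.0% of all, and the share that rose, 7.14%, was below the 23.9% of all. Of the 12 Slc30 and Slc39 probe sets 5 fell (41.7%) and 1 rose (8.33%). Slc30a5, which loads zinc into the early secretory pathway, fell on both of its probe sets, from 402 and 398 to 184 and 167 (-1.08 ± 0.09, adjusted p = 0.00168) and from 806 and 859 to 442 and 428 (-0.90 ± 0.06, adjusted p = 9.43e-04). Slc39a9, a zinc importer, was at 239 and 221 and then at 97.8 and 110 (-0.99 ± 0.13, adjusted p = 0.00543), and Slc39a6, of the same family, was at 342 and 323 and then at 204 and 186 (-0.70 ± 0.10). The arrays of the genotypes did not overlap for any of these. The call of Slc39a9 was lost without wild type replicate 1 (adjusted p = 0.0585), and that of Slc39a6 without wild type replicate 1 (0.0627) or wild type replicate 2 (0.0507).

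The fall of Slc30a3, a vesicular zinc carrier, was small, from 1258 and 1231 to 1098 and 1049 (-0.21 ± 0.05, adjusted p = 0.0219). It was lost without wild type replicate 1 (adjusted p = 0.159) or wild type replicate 2 (0.1246). Slc39a1, a zinc importer of the plasma membrane, rose from 601 and 655 to 799 and 942 (0.45 ± 0.10, adjusted p = 0.0242). That rise was lost without wild type replicate 1 (0.115), wild type replicate 2 (0.0715) or knock-out replicate 2 (0.0506). Slc39a7, which releases zinc from the secretory pathway, was at 1224 and 1234 in wild type and at 1146 and 1150 in knock-out, a difference that did not pass (-0.10 ± 0.04, adjusted p = 0.101). Slc30a8, the zinc carrier of the insulin granule, was not analysed here.

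On MG-U74B 2 of 10 zinc probe sets rose (20.0%, background 8.59%) and none fell, both of Slc39a14, an importer of zinc and iron. The first was at 341 and 218 in wild type and at 688 and 829 in knock-out (1.39 ± 0.26, adjusted p = 0.0311). The second was at -43.1 and 49.7 and then at 305 and 383 (3.09 ± 0.64, adjusted p = 0.0377), with a wild type array below 0. It passed the filter through its knock-out arrays, so that its direction was fixed by that choice. The share of rises includes it and rests on this gene alone. Slc30a1, the zinc exporter of the plasma membrane, lay lower in knock-out on both array types without a call. It was at 158 and 172 against 217 and 200 on MG-U74A (adjusted p = 0.0946) and at 137 and 259 against 374 and 566 on MG-U74B (adjusted p = 0.101).

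Carriers of iron and other metals moved in both directions. Slc11a1, the metal transporter of the macrophage phagosome, rose on MG-U74A from 38.7 and 34.8 to 233 and 289 (2.21 ± 0.18, adjusted p = 0.00141). Its wild type mean of 36.8 was below the filter, so that it passed through its knock-out arrays and its direction was tied to the filter. All 7 tested macrophage markers rose on the same arrays, and a link between them and Slc11a1 was not tested. The related and widely expressed Slc11a2 was not called on either of its probe sets (-0.22 and 0.25). Slc40a1, the iron exporter ferroportin, fell on MG-U74B from 2086 and 1883 to 735 and 760 (-1.38 ± 0.12, adjusted p = 0.00721). Slc31a2, a copper transporter of the low-affinity type, rose from 790 and 553 to 1470 and 1302 (1.04 ± 0.20, adjusted p = 0.0331), and its other probe set overlapped between genotypes (0.25, adjusted p = 0.490). Slc31a1, the high-affinity copper transporter, was not called on either of its MG-U74A probe sets (-0.09 and -0.05).

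Among carriers of sodium, calcium, chloride and bicarbonate, the calls on MG-U74A were falls. Slc8a1, the sodium-calcium exchanger NCX1, was at 178 and 159 in wild type and at 50.5 and 83.6 in knock-out (-1.10 ± 0.24, adjusted p = 0.0216), lost without wild type replicate 1 (0.118) or wild type replicate 2 (0.0931). Slc12a7, a potassium-chloride cotransporter, was at 144 and 183 and then at 70.2 and 71.0 (-0.97 ± 0.17, adjusted p = 0.0129), lost in the same fits (0.0520 and 0.101), and its probe set on MG-U74B overlapped (-0.27, adjusted p = 0.651). The anion exchanger Slc4a3, at 330 and 315 against 221 and 192, changed by -0.59 and the sodium-potassium-chloride cotransporter Slc12a2 by -0.27 (adjusted p = 0.0457). Slc4a3 was lost without wild type replicate 1 (0.0977) or wild type replicate 2 (0.0801), and Slc12a2 without wild type replicate 1 (0.244), wild type replicate 2 (0.188) or knock-out replicate 2 (0.0699). On MG-U74B Slc4a10, a sodium-coupled bicarbonate transporter, was at 274 and 372 in wild type and listed below 0 on both knock-out arrays (-3.78 ± 0.47, adjusted p = 0.0122). It passed the filter through its wild type arrays, so that its direction was tied to the filter. Slc24a2, a potassium-dependent sodium-calcium exchanger, fell from 1326 and 1166 to 753 and 645 (-0.81 ± 0.15, adjusted p = 0.0270). On this type 3 of 28 ion probe sets fell and 3 rose, 10.7% each beside 8.87% and 8.59% of all, with a median of 0.18. The kidney-type cotransporters Slc12a3 for sodium and chloride (1520 and 1480, then 2333 and 1952, adjusted p = 0.0582) and Slc34a3 for phosphate (1379 and 1254, then 1858 and 1657, adjusted p = 0.0815) were higher in knock-out on both arrays without a call.

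**Figure D3:**
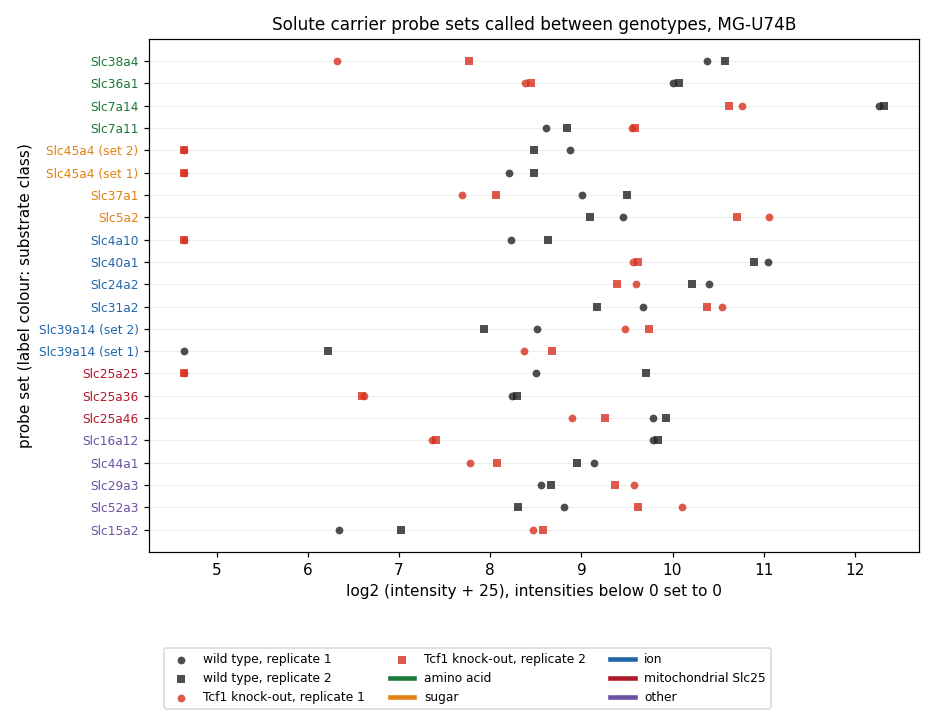
Called members of MG-U74B by substrate class, with log2 (intensity + 25) of each of the 4 arrays on the horizontal axis, wild type in black and knock-out in red, and values below 0 set to 0. Slc45a4, Slc4a10 and Slc25a25 are below 0 on both knock-out arrays, and Slc7a14 is lower in knock-out (1706 and 1553 against 4902 and 5070).

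Mitochondrial carriers of the Slc25 family had 8 falls and 3 rises among 18 probe sets of 15 genes on MG-U74A, with a median change of -0.35. These are 44.4% and 16.7%, beside 29.0% and 23.9% of all tested probe sets. Slc25a39, needed for glutathione import into mitochondria, was at 2068 and 2058 in wild type and at 770 and 636 in knock-out (-1.53 ± 0.10, adjusted p = 8.72e-04). Slc25a1, the citrate carrier, fell on both of its probe sets, from 831 and 861 to 390.1 and 417 (-1.02 ± 0.06, adjusted p = 7.37e-04) and from 1024 and 1077 to 619 and 565 (-0.80 ± 0.07, adjusted p = 0.00157). Slc25a11, the exchanger of oxoglutarate for malate, was at 878 and 909 and then at 497 and 414 (-0.94 ± 0.10). These were all apart between genotypes and held without any single array, as did Slc25a28, the iron importer mitoferrin 2, at 640 and 639 against 349 and 315 (-0.90 ± 0.07). Slc25a17, a member of the family that sits in the peroxisome, was at 818 and 802 and then at 464 and 419 (-0.84 ± 0.07, adjusted p = 0.00158).

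Slc25a36, a carrier of pyrimidine nucleotides, fell on both array types. It was at 441 and 446 in wild type and at 153 and 192 in knock-out on MG-U74A (-1.25 ± 0.13, adjusted p = 0.00267). On MG-U74B it was at 277 and 289 and then at 73.0 and 71.5 (-1.66 ± 0.32, adjusted p = 0.0315). The ADP/ATP carriers differed from each other. Slc25a4 fell by 0.37 on MG-U74A, from 2492 and 2496 to 1997 and 1850 (adjusted p = 0.00577), a call lost without wild type replicate 1 (0.0515) or wild type replicate 2 (0.0525). Its probe set on MG-U74B overlapped, at 2893 and 3162 in wild type and 3001 and 3276 in knock-out (0.05 ± 0.10).

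Slc25a5, the other abundant ADP/ATP carrier, rose on 2 of its 3 probe sets. They were at 1114 and 1097 in wild type and 1798 and 1733 in knock-out (0.66 ± 0.04, adjusted p = 7.46e-04), and at 2240 and 2257 and then 2579 and 2635 (0.21 ± 0.03, adjusted p = 0.00879). The third lay lower in knock-out without a call, at 163 and 203 against 254 and 204. The smaller rise was lost without wild type replicate 1 (0.104) or wild type replicate 2 (0.0949). Slc25a4 and Slc25a5 are close paralogs, and how far their probe sets share signal was not tested. Slc25a3, the phosphate carrier, was at 103 and 92.2 in wild type and at 185 and 162 in knock-out on MG-U74A (0.69 ± 0.15, adjusted p = 0.0205), lost without wild type replicate 1 (0.0867), wild type replicate 2 (0.120) or knock-out replicate 1 (0.0519). Its probe set on MG-U74B lay the other way, at 164 and 302 against 313 and 471, without a call (adjusted p = 0.241).

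On MG-U74B 3 of 25 Slc25 probe sets fell, none rose and 22 did not pass, with a median of -0.17. The called share, 12.0%, was under the 17.5% of all. Besides Slc25a36 these were Slc25a25 and Slc25a46. Slc25a25, a calcium-activated exchanger of ATP-magnesium for phosphate, was at 339 and 810 in wild type and listed below 0 on both knock-out arrays (-4.46 ± 0.56, adjusted p = 0.0120). It passed the filter through its wild type arrays, so that its direction was tied to the filter. Slc25a46, an outer membrane protein of the family, fell from 859 and 953 to 451 and 586 (-0.79 ± 0.18, adjusted p = 0.0479). Its other probe sets were not called and had opposite signs, -0.76 and 0.68. The aspartate-glutamate carriers Slc25a12 (-0.17) and Slc25a13 (-0.17) overlapped between genotypes. The glutamate carrier Slc25a22 was at 227 and 220 in wild type and at 250 and 403 in knock-out, apart but not called (0.46 ± 0.30, adjusted p = 0.336). The carnitine carrier Slc25a20, on MG-U74A, was at 245 and 248 against 273 and 236 and also overlapped.

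The remaining carriers, of vitamins, choline, nucleosides, creatine, organic ions and sugar nucleotides, had 6 falls and 4 rises among 30 probe sets on MG-U74A, with a median of -0.13. Both shares, 20.0% and 13.3%, were below those of all tested probe sets, 29.0% and 23.9%. Slc33a1, which brings acetyl-CoA into the endoplasmic reticulum, was at 232 and 226 in wild type and at 85.3 and 68.8 in knock-out (-1.32 ± 0.15, adjusted p = 0.00362). Slc44a1, a choline transporter, was at 541 and 510 and then at 242 and 215 (-1.12 ± 0.09, adjusted p = 0.00149). Its relative Slc44a2 rose from 35.1 and 45.4 to 158 and 203 (1.65 ± 0.21). Slc44a2 passed the filter through its knock-out arrays, so that its direction was fixed by that choice. The taurine carrier Slc6a6 fell on a probe set at 584 and 617 and then 288 and 275 (-1.03 ± 0.07, adjusted p = 9.64e-04), and the other lay lower without a call, at 1193 and 940 against 712 and 413 (adjusted p = 0.0569). Slc5a6, the carrier of biotin and pantothenate, changed by -0.89, with a knock-out mean below the filter. Slc23a2, a sodium-dependent ascorbate carrier, changed by -0.66, and Slc35a1, the CMP-sialic acid carrier of the Golgi, by -0.49. Each of these falls was lost without wild type replicate 1 (adjusted p = 0.117, 0.0561 and 0.166) or wild type replicate 2 (0.115, 0.0578 and 0.194), and Slc35a1 also without knock-out replicate 1 (0.0574).

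The rises on MG-U74A included Slc22a18, from an imprinted region, at 51.3 and 50.1 in wild type and at 161 and 160 in knock-out (1.29 ± 0.15). Its wild type mean was below the filter, so that its direction was tied to the filter. Slc6a12, the betaine and GABA carrier, was at 136 and 144 and then at 345 and 269 (1.00 ± 0.15), lost without wild type replicate 1 (adjusted p = 0.0516). Slc29a1, the equilibrative nucleoside transporter ENT1, rose from 289 and 261 to 411 and 434 (0.58 ± 0.09), lost without wild type replicate 2 (0.0582). A further probe set of Slc29a1 on MG-U74A lay below the filter and overlapped between genotypes, at 41.1 and 87.3 in wild type and 45.8 and 18.9 in knock-out. On MG-U74B 2 of 28 fell and 3 rose (7.14% and 10.7%, background 8.87% and 8.59%). Slc16a12, of the monocarboxylate family and known to carry creatine, was at 856 and 893 in wild type and at 140 and 144 in knock-out (-2.43 ± 0.19, adjusted p = 0.00633). The groups were far apart and the arrays of each nearly equal.

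Slc44a1 fell on MG-U74B too, from 540 and 468 to 194 and 245 (-1.12 ± 0.23, adjusted p = 0.0353), while its other probe set there lay higher in knock-out, at 597 and 507 against 415 and 506 in wild type, without a call. The rises were those of Slc52a3, a riboflavin transporter, from 423 and 290 to 1078 and 762 (1.31 ± 0.27), of Slc15a2, a carrier of small peptides, from 55.9 and 105 to 328 and 357 (1.84 ± 0.37), and of Slc29a3, a lysosomal nucleoside transporter, from 350 and 382 to 738 and 635 (0.86 ± 0.17). The probe set of Slc15a2 on MG-U74A overlapped, with 72.0 and 82.4 against 78.4 and 38.2. Slc35a5, of the nucleotide sugar family, lay lower in knock-out without a call, at 421 and 492 against 82.5 and -5.00 (-3.21 ± 0.76, adjusted p = 0.0509). The knock-out mean of Slc35a5 was below the filter, so that its direction was tied to the filter. With a knock-out array below 0 the size depends on the constant added. Slc16a3, the lactate exporter MCT4, was at 79.3 and 393 in wild type and at 726 and 716 in knock-out (1.84 ± 0.67, adjusted p = 0.130), with wild type arrays that differed widely.

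Probe sets of the same gene differed often enough to matter for reading single values. Of the 35 genes with several member probe sets 18 had a call. For 6 of these all member probe sets were called the same way, namely Slc25a1, Slc25a36, Slc30a5, Slc38a4 and Slc45a4, which fell, and Slc39a14, which rose. Slc45a4 and Slc39a14 each had a further probe set on MG-U74B that was not a member. It lay below the filter and was listed below 0 on all 4 arrays. The other 12 had a call beside a probe set without one. No gene had calls in opposite directions, and for 8 an uncalled probe set had the opposite sign. Slc37a1 and Slc15a2 are among these 8. Their uncalled probe sets had a genotype mean below the filter, so that the sign was tied to the filter.

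**Figure D4:**
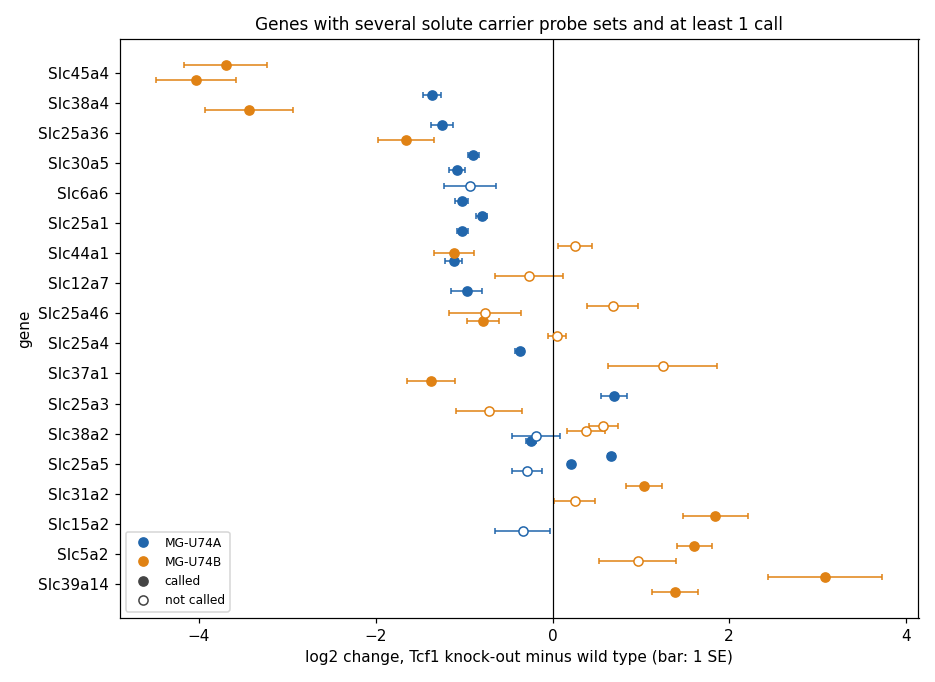
Log2 change of each member probe set of the 18 genes that have several member probe sets and at least 1 call. Colour gives the array type, called probe sets are filled and bars are 1 SE. The probe sets of Slc30a5, Slc25a1, Slc38a4 and Slc45a4 all lie below 0, those of Slc38a4 far apart at -1.36 and -3.44. Those of Slc37a1 lie on both sides of 0, and the direction of the uncalled one was tied to the filter.

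Sequences of 250 bases before the annotated start are shown for 4 members whose transcripts fell, a pair of those called on both array types and a pair that holds the motif searched, so that both kinds of window can be read. They are from RefSeq, mouse build GRCm38.p6, 5′ to 3′ on the gene's strand. Capitals mark GTTAAT or its reverse complement ATTAAC, the motif that homeodomain factors such as Tcf1 are known to bind. Slc38a4 lies at chr15:97055957-97056206 on the minus strand and is the first of 3 listed starts, and Slc25a36 at chr9:97111042-97111291 on the minus strand. Slc36a1 lies at chr11:55204090-55204339 and Slc39a9 at chr12:80643965-80644214, both on the plus strand.
Slc38a4: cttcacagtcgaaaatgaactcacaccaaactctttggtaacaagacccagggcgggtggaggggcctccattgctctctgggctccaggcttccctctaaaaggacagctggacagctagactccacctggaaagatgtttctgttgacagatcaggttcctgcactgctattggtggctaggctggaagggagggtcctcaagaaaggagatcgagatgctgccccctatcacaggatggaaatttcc
Slc25a36: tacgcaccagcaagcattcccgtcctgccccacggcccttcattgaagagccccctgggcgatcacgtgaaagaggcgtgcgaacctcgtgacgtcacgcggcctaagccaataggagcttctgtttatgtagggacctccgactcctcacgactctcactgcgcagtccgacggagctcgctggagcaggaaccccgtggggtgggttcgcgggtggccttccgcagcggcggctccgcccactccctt
Slc36a1: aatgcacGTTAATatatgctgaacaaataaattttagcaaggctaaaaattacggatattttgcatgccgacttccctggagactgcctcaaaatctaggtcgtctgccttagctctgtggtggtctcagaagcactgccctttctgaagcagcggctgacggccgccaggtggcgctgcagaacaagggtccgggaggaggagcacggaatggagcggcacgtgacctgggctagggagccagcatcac
Slc39a9: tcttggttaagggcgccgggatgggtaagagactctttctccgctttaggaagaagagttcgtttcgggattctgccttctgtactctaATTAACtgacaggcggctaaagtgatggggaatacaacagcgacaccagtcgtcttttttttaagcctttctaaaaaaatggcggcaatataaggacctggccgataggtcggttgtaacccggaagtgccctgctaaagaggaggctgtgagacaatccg
The motif began 243 bases before the start in Slc36a1 and 161 bases before it in Slc39a9, and these letters were not in the windows of Slc38a4 and Slc25a36. Windows were found for 137 of the 175 member genes, and 6 of their 192 windows (3.12%) held the motif on either strand, beside 2113 of all 32851 windows (6.43%). The share was 2 of 46 windows (4.35%) for genes that fell, 1 of 29 (3.45%) for genes that rose and 3 of 117 (2.56%) for genes without a call. The genes with a match were Slc23a3, Slc36a1, Slc39a9, Slc5a10, Slc6a13 and Slc7a7. The longer motif GTTAATNATTAAC, which contains the shorter one in both orientations, was in 3 of all windows and in none of the members'.

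Genes that work with the carriers, from a list that the name rule did not take, were counted on the same arrays, each gene through its probe set of highest mean, beside a background of 29.0% falls and 23.9% rises on MG-U74A and 8.87% and 8.59% on MG-U74B. These lists are short, and nothing is read from their shares. Of 5 tested sodium pump genes on MG-U74A 1 fell, the pump subunit Atp1b1 (-1.13), and 1 rose, the pump regulator Fxyd5 (2.89). Of 6 chaperones and regulators of carriers 3 fell and none rose, among them Emb (-1.40), a partner of monocarboxylate carriers, and the kinase Wnk1 (-1.09), which regulates cation-chloride cotransport. Of 7 other mitochondrial transport genes 4 fell, including the sideroflexins Sfxn1 (-0.86), known as a serine carrier, and Sfxn2 (-1.73). Only 1 of the 2 tested probe sets of Sfxn2 was called, and on MG-U74B Sfxn1 lay higher in knock-out without a call (0.37). Of 7 genes of lettered Slc35 families 2 fell, Slc35b1 (-0.68) and Slc35e4 (-0.89), and a further probe set of Slc35e1 rose while the counted one was not called. On MG-U74B none of the 3 pump genes, 3 chaperones and 4 mitochondrial genes was called. There Slco2a1 (1.75), the prostaglandin transporter, on 1 of its 2 tested probe sets, and Slco3a1 (0.67) rose and Slco1a6 (-1.75) fell, of 5 organic anion transporter genes. Slc35f6 (1.28) rose and Slc35f5 (-1.73) fell there, of 7.

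The name rule also took 3 probe sets of genes that are not carriers and only bear a carrier's name, Slc4a1ap, Slc9a3r1 and Slc7a6os. None was called, and the arrays of the genotypes overlapped for each. Of the probe sets below the filter 21 on MG-U74A and 30 on MG-U74B were at or below 0 on all 4 arrays. Slc1a5 and Slc3a1 lay below the filter on MG-U74A. When limma was run without a filter, 7 of the 74 on MG-U74A were called, 1 rise and 6 falls, and 2 of the 77 on MG-U74B, both falls. The share over all probe sets below the filter was not counted, so nothing is read from these numbers.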

How the data were processed

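RNA of wild type and Tcf1 knock-out islets was measured on 8 arrays. The authors deposited 1 linear intensity per probe set, scaled by them to a common trimmed mean of about 250 (2% of probe sets trimmed at each end), as the values show. The software that made the values is, in the sources used here, not given. Each array was rescaled by 1 factor to the average trimmed mean of its type, negative values were replaced by 0, and 25 was added before taking log2. Control probe sets (66 on each type) and probe sets with a mean below 62.5 were left out.

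Genotypes were compared within each array type in limma 3.58.1 (R 4.3.3; lmFit, then eBayes with trend), two-sided, without a replicate block, with Benjamini-Hochberg adjustment over all tested probe sets and a threshold of 0.05. The smallest p that exact permutation of 4 arrays allows is 0.333. The p-values rest on limma's pooled spread and measure only the spread between these arrays, and the number of arrays limits the precision. Errors are standard errors of the change.

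Members, lists and tests were chosen with earlier results of these data known. Substrate classes were set by hand from the symbols, and the class of Slc6a20b and of the 3 probe sets of genes that are not carriers was set after values had been seen. The rule for named members took, in each class and array type, the largest called falls and rises, the probe sets with the highest mean, fixed names and genes whose probe sets disagreed. Of those with the highest mean, Slc50a1 on MG-U74A (-0.19) and Slc5a10 (0.23), Slc17a3 (-0.30) and Slc49a4 (-0.27) on MG-U74B were not called and are given only here. Further uncalled members were named after their values had been seen. Names are those of the array annotation, all current in the RefSeq table of GRCm38.p6, whose promoter table gave the windows. Alternatives were other normalization, constants, filters and variance models, a replicate block and leaving out each array. Replicate numbers are shared by the genotypes, and same-numbered arrays did not deviate together (correlation 0.0241 on MG-U74A and 0.0316 on MG-U74B), so they were not treated as pairs.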

Additional observations from a re-analysis of the deposited data

How the results depend on the processing

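With 2 arrays a genotype, the count of called members moved when an array was left out and, on MG-U74B, also with the filter and the variance model. These ranges count every member called in a fit, also members not called in the main fit, and are not numbers of calls kept. On MG-U74A the 43 calls ranged from 27 to 49, with the lone array of a genotype assumed to vary like the other pair, and the 33 falls from 20 to 39. On MG-U74B the 22 calls ranged from 0 to 9, the 8 rises were all lost and the 14 falls ranged from 0 to 9. Without a filter 7 members were called on MG-U74B, 0 rises and 7 falls, and without a variance trend 11, 2 rises and 9 falls. With a replicate block, although the numbers do not pair the arrays, 43 members were called on MG-U74A (12 rose, 31 fell, 39 called in both fits) and 24 on MG-U74B (9 rose, 15 fell, 19 in both). In the settings other than leaving out an array, 36 of the 43 calls on MG-U74A and 7 of the 22 on MG-U74B were kept throughout. Among named members of MG-U74A, the small changes of Slc25a5, Slc30a3 and Slc38a2 were lost without a variance trend and those of Slc39a1 and Slc8a1 without a filter. The variance trend was not the only such setting, as Slc25a5 and Slc30a3 were called in 7 of 9 settings and Slc38a2 in 6. Slc12a2 was lost in 2 and Slc35a1 in 1 of these 9 settings. Without knock-out replicate 1 and then without knock-out replicate 2, the change was -0.51 and 0.14 for the uncalled probe set of Slc38a2, 0.36 and -0.89 for Slc2a1, and -0.66 and 0.37 for Slc2a3. Without wild type replicate 1 and then 2 it was -0.021 and 0.0093 for Slc4a1ap, 0.13 and -0.023 for Slc9a3r1, -0.54 and 0.64 for Slc7a6os, and -0.012 and 0.12 for Slc25a4 on MG-U74B. None of these was called, and the signs of such changes cannot be read. Depth has no measure on these arrays, and values at or below 0 have no order.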
